A study of Homo sapiens with 15 samples.

Results

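The CCN family comprises 6 secreted matricellular proteins, CCN1 to CCN6, and its expression was followed here in 143B, a human osteosarcoma cell line. The members were taken from both deposited tables as the Ensembl gene IDs that GENCODE pairs with these 6 symbols, which gave 6 of 62700 genes. Of the 6 members, 5 had at least 1 count in some library, and 3 (CCN1, CCN2 and CCN3) passed the filter on low counts in each table, where 14287 and 14574 genes were tested. RNA-seq had been carried out on 15 libraries in 5 conditions, with 3 libraries each. Wild-type 143B cells grown attached in serum (non-OSC) and wild-type 143B cells grown as spheres in serum-free medium with EGF and basic FGF (OSC, for osteosarcoma stem cells) form one table. Sphere cultures infected with a control lentivirus (shCtrl) or with 1 of 2 lentiviral hairpins against PDK1 (shPDK1_1 and shPDK1_2) form the other. PDK1 is a kinase that inhibits pyruvate dehydrogenase. All 15 libraries derive from this single cell line, and the labels do not say whether the 3 libraries of a condition came from separate cultures, so the p-values below measure only the spread between these libraries. OSC and non-OSC differ in attachment, medium and growth factors together, and the parts of these in any difference cannot be told apart. In bulk RNA, fewer cells of one kind and less RNA per cell cannot be told apart either.

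CCN proteins are secreted into the extracellular matrix, where they bind integrins, heparan sulfate proteoglycans and growth factors and modulate how cells read matrix and ligand signals. CCN1 (CYR61) and CCN2 (CTGF) are classical targets of the YAP/TAZ-TEAD, SRF and TGF-beta pathways, are induced in attached and spread cells, and act in angiogenesis, chondrogenesis and fibrosis. CCN3 (NOV) is known as a regulator that often acts against CCN2 and has been linked to osteoblast differentiation and to tumours of the musculoskeletal system. CCN4, CCN5 and CCN6 are the WISP proteins, and CCN5 lacks the C-terminal cysteine knot of the other members.

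The promoter of CCN2 is shown because CCN2 is the member that fell most in OSCs and because several of the gene groups described below act on its transcription. A promoter entry was present in the RefSeq table for 2 of the 6 members, CCN2 and CCN6. The sequence covers the 250 bases before the annotated start of CCN2, chr6:131951373-131951622 of GRCh38.p14, minus strand, from RefSeq. Capitals mark GGAATG, the core sequence recognised by TEAD factors.
CCN2 promoter: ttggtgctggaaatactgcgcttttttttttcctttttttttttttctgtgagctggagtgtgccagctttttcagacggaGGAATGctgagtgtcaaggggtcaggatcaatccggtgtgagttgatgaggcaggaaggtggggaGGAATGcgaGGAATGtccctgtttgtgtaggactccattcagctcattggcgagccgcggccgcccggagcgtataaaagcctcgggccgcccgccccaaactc
GGAATG was searched on both strands and occurred 3 times in these 250 bases, each time on the strand shown. At least 1 match was present in 11.9% of 35116 RefSeq promoter windows of the same length, and 29 windows (0.0826%) held 3 or more. The AP-1 motif TGANTCA (present in 6.57% of the windows), CAGACA as a form of the Smad motif (13.6%) and the SRF CArG box (1.16%) had no match here. Only these exact forms were searched, so other forms of the motifs can be present. The window holds cagacg, which differs from CAGACA in the last letter, shortly before the first GGAATG. These matches describe letters in a window and not bound sites.

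Library totals ranged from 7992499 to 10495051 counts in the table of OSCs and from 8073055 to 11256536 counts in the shRNA table. Levels are given as CPM, the counts scaled to the library total after TMM normalisation (trimmed mean of M values). Levels of different genes are compared as CPM per kilobase of summed exon length (CPM per kb), unless CPM are named. That length merges the exons of all annotated transcripts and was 3698 bases for CCN1, 2338 for CCN2 and 2614 for CCN3. For CCN1 it takes in nearly the whole gene, so orders, sums and shares per length depend on this choice of length. Markers of the osteoblast lineage were present in part: their summed level was 1080 to 1143 CPM in non-OSC, 2490 to 2570 CPM in OSC, 3643 to 3722 in shCtrl, 3910 to 3985 in shPDK1_1 and 5200 to 5333 in shPDK1_2, with no overlap between the groups. The sum was carried by COL1A1, SPARC and SPP1. RUNX2 and ALPL went the other way between non-OSC and OSC (means of 37.7 and 17.3 CPM, and of 2.65 and 1.48 CPM), IBSP was at 0 in all 15 libraries and SP7 did not exceed 1 count. The part of these markers in the CCN values was not tested. The lymphocyte, endothelial and myeloid markers each summed to at most 2.67 CPM in any library. The osteoclast markers CTSK and MMP9 summed to 27.3 to 30.2 CPM in non-OSC, 77.1 to 80.7 in OSC, 50.9 to 56.01 in shCtrl, 34.3 to 42.6 in shPDK1_1 and 22.3 to 26.4 in shPDK1_2. The pericyte markers RGS5 and ACTA2 summed to 4.23 to 5.24 CPM in non-OSC, 20.5 to 23.6 in OSC and 15.2 to 22.1 in the shRNA table. None of these 4 genes was at 0 throughout a group, and their part in the CCN values was not tested.

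In attached cells CCN2 and CCN1 made up nearly all CCN mRNA, whereas in OSCs both fell and CCN3 was the member with the highest level per length. In CPM, CCN3 and CCN1 were close to each other in OSCs (52.4 and 51.2). CCN2 fell 13.2-fold and CCN1 fell 3.02-fold in OSCs, while the level of CCN3 was 21.5-fold higher (n = 3 libraries per condition). CCN3 is one of the candidate genes that the study drew from these same libraries for being higher in OSCs and lower after PDK1 knockdown, so its differences are given as a description without a p-value and are not independent evidence of their direction.

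CCN2 (ENSG00000118523.6, chromosome 6 of GRCh38, 131948176 to 131951372, minus strand, 5 exons) had 229.3, 226.4 and 221.0 CPM in the non-OSC libraries and 14.9, 19.0 and 17.5 CPM in the OSC libraries. Each non-OSC library was far above each OSC library. The means were 225.6 ± 4.21 and 17.1 ± 2.08 CPM (SD, 3 libraries each). CCN2 fell by 3.71 on the log2 scale (standard error, SE, 0.075, adjusted p = 4.99e-20 in the quasi-likelihood test of edgeR), and 81 of the 14287 genes tested had a larger change in either direction. The exons of CCN2 are covered to 11.9% by the antisense gene LINC01013, and reads of the pair cannot be separated without strand information, but LINC01013 itself had only 2 to 8 counts in any library.

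CCN1 (ENSG00000142871.18, chromosome 1, 85580761 to 85584589, plus strand, 5 exons) had 148.5, 158.7 and 156.6 CPM in non-OSC and 56.2, 49.2 and 48.2 CPM in OSC. The groups did not overlap. Their means were 154.6 ± 5.39 and 51.2 ± 4.35 CPM (SD, 3 libraries each), and the log2 fold change was -1.60 (SE 0.067, adjusted p = 7.53e-15, edgeR).

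CCN3 (ENSG00000136999.5, chromosome 8, 119416446 to 119424434, plus strand, 5 exons) had 2.50, 2.51 and 2.31 CPM in non-OSC, where 21 to 26 counts were behind each value, and 54.5, 53.2 and 49.5 CPM in OSC, with 411 to 527 counts. It was thus the member that went the other way. The means were 2.44 ± 0.11 and 52.4 ± 2.56 CPM, and the log2 fold change was 4.42 (SE 0.131), with 38 genes showing a larger change. An antisense gene covers 7.8% of its exons and had at most 2 counts in any library. All 3 tested members passed an adjusted p of 0.05 in this comparison, as did 63.9% of all genes tested, with 32.4% higher and 31.5% lower in OSCs, and the libraries of OSC and non-OSC did not overlap for 66.9% of genes.

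**Figure D1:**
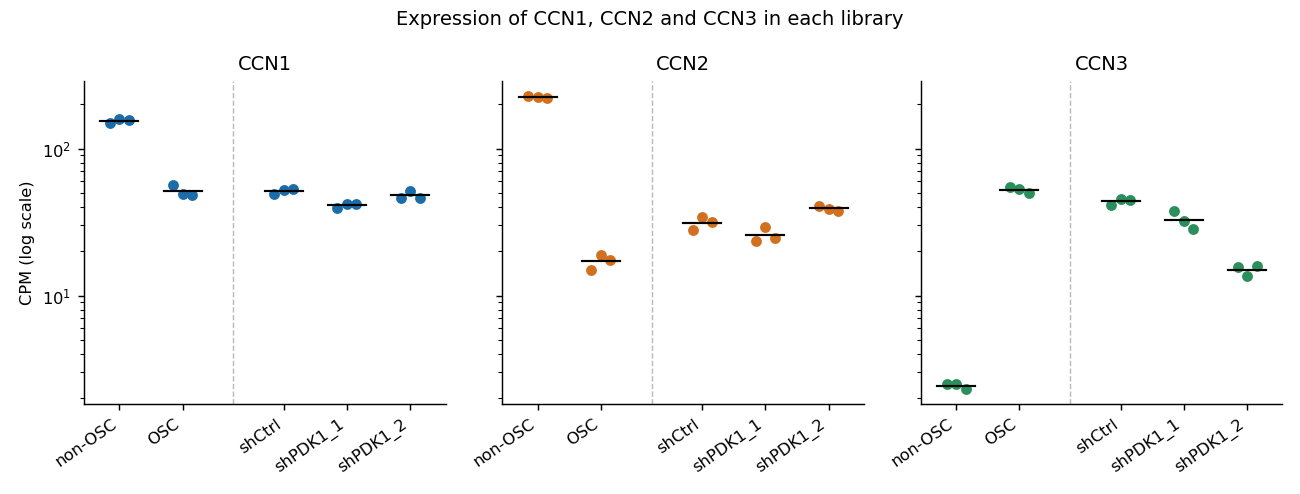
Level of CCN1, CCN2 and CCN3 in CPM (log scale) in each library of the 5 conditions. Points are libraries, bars are means of 3 libraries, and the dashed line separates the 2 deposited tables. CCN1 and CCN2 lie highest in non-OSC (154.6 and 225.6 CPM), CCN3 lies lowest there (2.44 CPM) and second lowest in shPDK1_2 (15.05 CPM).

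The remaining members were at or near the limit of detection. CCN4 (chromosome 8) had 3, 7 and 8 counts in non-OSC and 0, 2 and 6 in OSC, then 4, 10 and 0 in shCtrl, 2, 2 and 6 in shPDK1_1 and 2, 3 and 5 in shPDK1_2. Its groups overlapped throughout, and at 1.002 CPM or less in every library it was not tested. CCN5 (chromosome 20) had 0 counts in all 15 libraries, which allows up to 0.267 to 0.375 CPM depending on the library (3 counts, counting error only). CCN6 (chromosome 6) had 1 count in shCtrl replicate 2 and 0 in the other libraries, so expression of CCN5 and CCN6 was not detectable at this depth.

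Per length, the order of the members differed between conditions. In non-OSC, CCN2 stood at 96.5 CPM per kb, CCN1 at 41.8 and CCN3 at 0.93, which placed them at percentiles 97.7, 93.7 and 17.7 of the genes tested in that table. In OSC the order was CCN3 with 20.0, CCN1 with 13.8 and CCN2 with 7.32 CPM per kb. No library of one gene overlapped with its neighbour in that order. In CPM, which are not corrected for length, the libraries of CCN3 and CCN1 overlapped in OSC (means of 52.4 and 51.2 CPM). The summed level of the family was 139.3 ± 1.48 CPM per kb in non-OSC and 41.3 ± 1.47 in OSC. As shares of that sum, CCN2 had 69.2% and CCN3 0.67% in non-OSC, against 17.8% and 48.6% in OSC, while CCN1 had 30.0% and 33.5%.

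**Figure D2:**
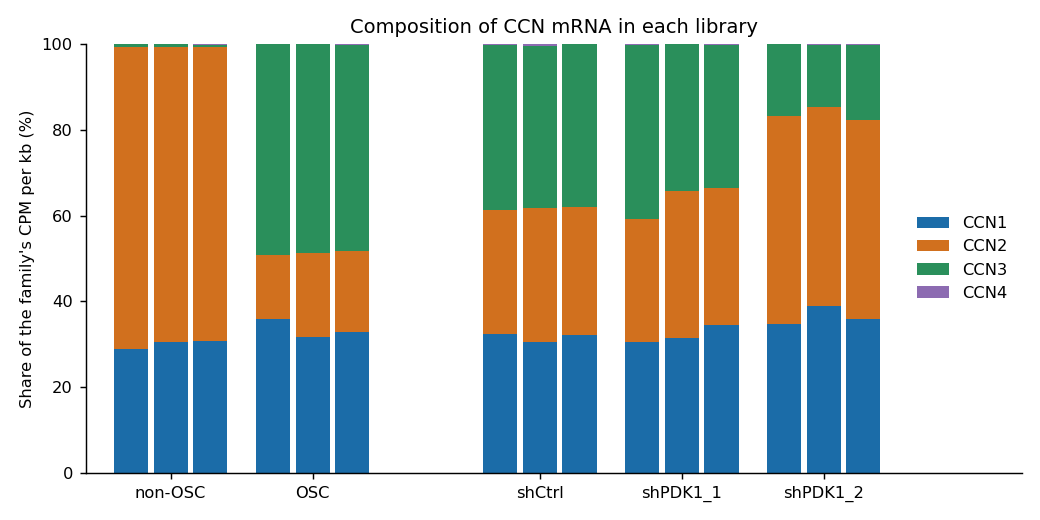
Share of CCN1, CCN2, CCN3 and CCN4 in the summed CPM per kb of the family (percent), 1 bar per library. CCN3 takes 0.67% on average in non-OSC, 48.6% in OSC, 38.0% in shCtrl, 36.0% in shPDK1_1 and 16.2% in shPDK1_2. CCN5 and CCN6 are not drawn. The shares depend on the exon lengths used.

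The hairpins were then compared with shCtrl. PDK1, the targeted gene, had 46.6, 44.6 and 44.3 CPM in shCtrl, 28.9, 27.8 and 27.3 CPM in shPDK1_1 and 18.2, 21.5 and 19.5 CPM in shPDK1_2. It was therefore at 62.0% and 43.7% of shCtrl, with no overlap between any of the 3 groups. Both hairpin comparisons use the same 3 shCtrl libraries and are not independent of each other. In brief, CCN3 was lower with either hairpin, CCN1 fell with shPDK1_1, and CCN2 rose with shPDK1_2.

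CCN3 had 41.6, 45.8 and 44.6 CPM in shCtrl, 37.4, 32.2 and 28.4 CPM in shPDK1_1 and 15.7, 13.6 and 15.8 CPM in shPDK1_2. The 3 groups did not overlap, and shPDK1_2 was lowest in each library. CCN3 stood at 74.2% of shCtrl with shPDK1_1 (log2 fold change -0.44, SE 0.093) and at 34.2% with shPDK1_2 (-1.55, SE 0.103). The shPDK1_1 difference rests in part on replicate 3 of that hairpin: without it, the log2 fold change was -0.35 and the call was lost. As in OSCs, these values are a description, since the study selected CCN3 for its decrease.

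CCN1 had 49.4, 52.5 and 53.6 CPM in shCtrl, 39.7, 41.9 and 41.7 CPM in shPDK1_1 and 46.2, 51.9 and 46.4 CPM in shPDK1_2. All shPDK1_1 libraries lay below all shCtrl libraries, whereas shPDK1_2 overlapped with shCtrl. With shPDK1_1, CCN1 fell by 0.33 on the log2 scale (SE 0.074, adjusted p = 0.0102, edgeR). This call was lost without shCtrl replicate 2 or without shCtrl replicate 3 (adjusted p = 0.0570 and 0.0571). With shPDK1_2 the log2 fold change was -0.11 (95% interval -0.25 to 0.04, adjusted p = 0.315, edgeR), which did not pass the test.

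CCN2 had 27.9, 34.2 and 31.5 CPM in shCtrl, 23.5, 29.2 and 24.5 CPM in shPDK1_1 and 41.0, 39.0 and 37.8 CPM in shPDK1_2. Here shPDK1_2 was the highest group in every library, and shPDK1_1 overlapped with shCtrl. With shPDK1_2, CCN2 rose 1.26-fold (log2 fold change 0.33, SE 0.092, adjusted p = 0.00849, edgeR). Without shCtrl replicate 1 the log2 fold change was 0.26 and the call was lost (adjusted p = 0.0743). With shPDK1_1 the log2 fold change was -0.28 (95% interval -0.48 to -0.08) and did not pass after adjustment (adjusted p = 0.14, edgeR), although it did without shPDK1_1 replicate 2 (log2 fold change -0.38, adjusted p = 0.0358).

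Counting the tested members, CCN1 and CCN3 passed the threshold with shPDK1_1, where 3.06% of all genes did (1.62% higher, 1.44% lower), and CCN2 and CCN3 passed it with shPDK1_2, where 26.2% did (12% higher, 14.2% lower). Leaving out CCN3, which the study selected through these comparisons, 1 of the other 2 tested members passed in each. The libraries of shPDK1_1 and shCtrl did not overlap for 19.3% of genes, and those of shPDK1_2 and shCtrl for 39.5%.

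The hairpins were also compared with each other within the same fit. CCN2 was 1.53-fold higher with shPDK1_2 than with shPDK1_1 (log2 fold change 0.61, SE 0.094, adjusted p = 3.18e-05, edgeR), and CCN1 was 1.17-fold higher (0.23, SE 0.074, adjusted p = 0.037, edgeR). CCN3 was at 46.1% (log2 fold change -1.10, SE 0.106). Of all genes, 16.3% were called in this comparison (6.5% higher and 9.78% lower with shPDK1_2), and the hairpins' libraries did not overlap for 30.7%, as they did not for these 3 members. The CCN1 call was lost with DESeq2 (adjusted p = 0.0687), without the filter on low counts (0.0565), with only the compared groups in the fit (0.0544), and without shPDK1_1 replicate 1 (0.110), shPDK1_1 replicate 3 (0.0735) or shPDK1_2 replicate 2 (0.169), with edgeR in all but the first. PDK1 itself was lower with shPDK1_2 (log2 fold change -0.50). The markers of fibroblasts summed to 22.8 to 25.6 CPM with shPDK1_2 against 7.58 to 9.93 with shPDK1_1 and 3.61 to 4.38 in shCtrl. Of the 5 markers none was at 0 in a whole group, and with shPDK1_2 PDGFRB and POSTN were the highest. LUM and COL1A2 reached only 1.83 and 1.49 CPM with shPDK1_2. DCN went the other way, with 0.16 CPM against 0.50 with shPDK1_1 and 0.39 in shCtrl. The part of PDK1 and of these markers in the CCN values was not tested.

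**Figure D3:**
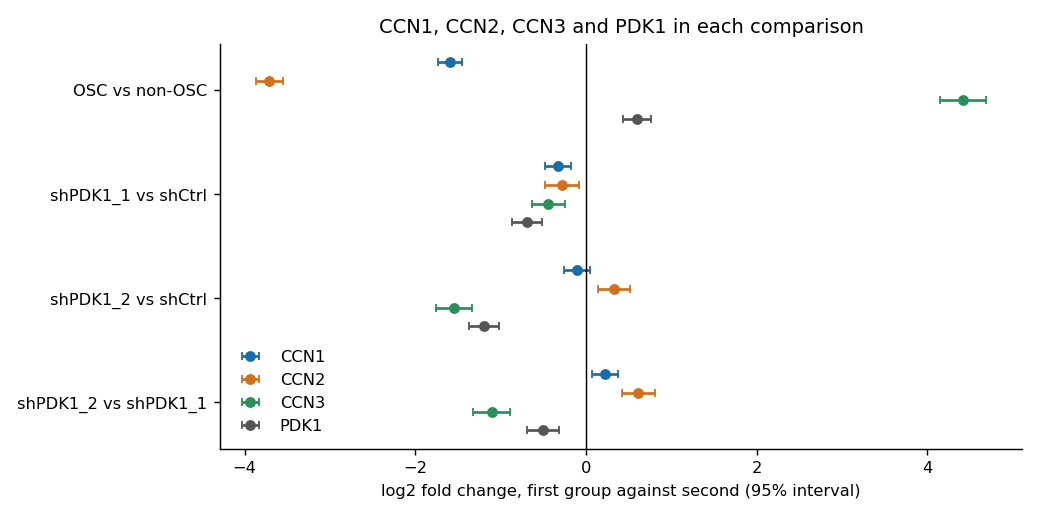
Log2 fold change of CCN1, CCN2, CCN3 and PDK1 in the 4 comparisons, with 95% intervals from the edgeR fit. In OSC against non-OSC the members spread from -3.71 to 4.42. With shPDK1_1 the 3 members lie between -0.44 and -0.28, and with shPDK1_2 CCN3 (-1.55) and CCN2 (0.33) lie on opposite sides of 0.

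The order per length followed these differences. In shCtrl, CCN3 had 16.8, CCN1 14.01 and CCN2 13.3 CPM per kb, and CCN1 and CCN2 overlapped. In shPDK1_1 the values were 12.5, 11.1 and 10.997 CPM per kb, and the libraries of all 3 genes overlapped, so no order per length can be given. In shPDK1_2, CCN2 led with 16.8 CPM per kb, followed by CCN1 with 13.0 and CCN3 with 5.76, with no overlap between neighbours. In CPM, CCN1 had the highest mean of the 3 genes in shCtrl (51.8), shPDK1_1 (41.1) and shPDK1_2 (48.2). The place of CCN1 in these orders thus rests on the exon lengths used. The family sum was 44.3 ± 2.73 CPM per kb in shCtrl, 34.7 ± 1.76 with shPDK1_1 and 35.6 ± 0.66 with shPDK1_2, and the shCtrl libraries lay above both. Of these sums CCN3 took 38.0%, 36.0% and 16.2%. OSC and shCtrl are both sphere cultures from different tables and were not tested against each other; side by side, CCN1 had 51.2 and 51.8 CPM, CCN3 52.4 and 44.005 CPM, and CCN2 17.1 and 31.2 CPM.

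To compare CCN3 with its relatives inside each library, the log2 ratio of their CPM was taken. The log2 ratio of CCN3 to CCN1 was -5.89, -5.98 and -6.08 in non-OSC and -0.04, 0.11 and 0.04 in OSC, a 64.95-fold shift. That of CCN3 to CCN2 was -6.52, -6.49 and -6.58 in non-OSC and 1.87, 1.49 and 1.503 in OSC, a 284-fold shift. In CPM, which are not corrected for length, CCN3 thus went from far below both genes to the level of CCN1 and above CCN2. Per length, CCN3 was above CCN1 in OSC (20.0 against 13.8 CPM per kb), an order that depends on the exon lengths used. With shPDK1_2, CCN3 declined relative to CCN1 by a factor of 2.72 and relative to CCN2 by a factor of 3.70, again without overlap between groups. With shPDK1_1 the libraries overlapped with shCtrl for both ratios (log2 differences -0.11 and -0.16). With all libraries, CCN3 was thus not lower in relation to CCN1 and CCN2 beyond the spread between libraries. The overlap came from shPDK1_1 replicate 1, and without it the differences were -0.23 (CCN1) and -0.32 (CCN2). The highest values were 0.0014 without shPDK1_1 replicate 3 (CCN1) and -0.06 without shPDK1_1 replicate 2 (CCN2). No p-value is given for ratios with CCN3, for the reason above.

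The ratio of CCN2 to CCN1 does not involve CCN3. Its log2 difference was -2.13 in OSC against non-OSC, 0.44 with shPDK1_2 and 0.05 with shPDK1_1 against shCtrl, and 0.39 between the hairpins. In a two-sided exact permutation test p was 0.1 for each but shPDK1_1 against shCtrl, where it was 0.6. With 3 against 3 libraries 0.1 is the smallest p this test can give, so it cannot pass a threshold of 0.05.

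**Figure D4:**
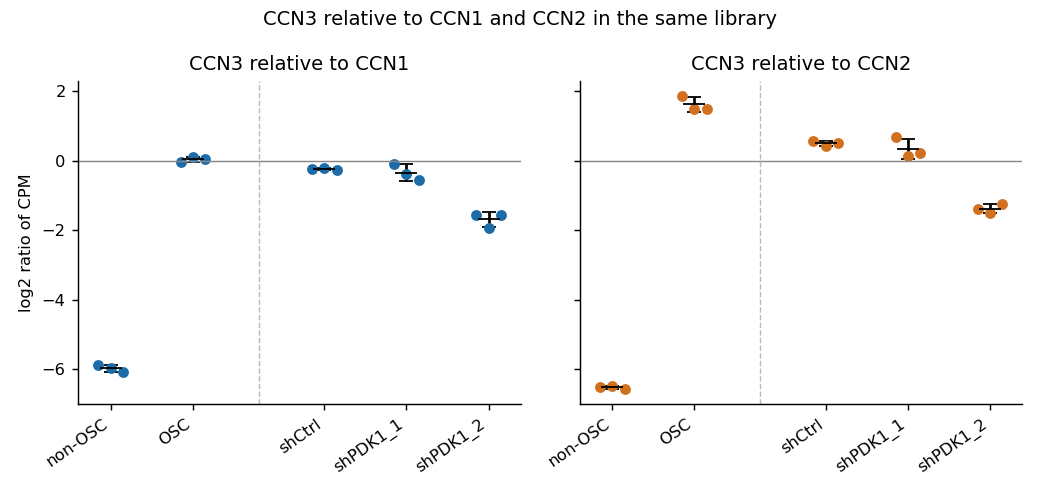
Log2 ratio of the CPM of CCN3 to that of CCN1 (left) and CCN2 (right) in each library. Points are libraries, and black bars are the mean and SD of 3 libraries. The ratio to CCN1 lies near -6 in non-OSC (mean -5.99) and near 0 in OSC (0.04), and both ratios are lower in shPDK1_2 (-1.68 and -1.39) than in shCtrl (-0.24 and 0.50).

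CCN proteins act through integrins and co-receptors. Of 13 such genes, 12 were tested in OSCs, and 8 rose and 1 fell (median log2 fold change 0.37, against -0.0053 over all genes tested), where 32.4% of all genes rose and 31.5% fell. SDC4, a heparan sulfate proteoglycan of focal adhesions, rose from 82.6 ± 2.65 to 335.5 ± 4.42 CPM (log2 fold change 2.02, adjusted p = 1.60e-18, edgeR). ITGB1, the common beta subunit of many matrix receptors, was the gene that fell, to 89.7% (adjusted p = 0.00256, edgeR). With shPDK1_2, none of 11 tested rose, 0 of them at an unadjusted p under 0.05 with edgeR or DESeq2, and 8 fell (median -0.24, against 0.0083), where 14.2% of all genes fell. ITGB3, the beta subunit of the integrin alphavbeta3 that binds CCN1, CCN2 and CCN3, was among them, at 59.7% of shCtrl (adjusted p = 2.13e-06, edgeR). With shPDK1_1, ITGB3 (72.0%, adjusted p = 0.00498, edgeR) and ITGA6 were the 2 that fell, where 1.44% of all genes fell, and the median was -0.02.

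The upstream YAP/TAZ-TEAD pathway was taken as 14 factors and kinases and 20 target genes other than the members. Among the factors and kinases, 8 rose and 2 fell in OSCs (median 0.23). That is 10 of 14 called, near the 63.9% of all genes. The coactivator WWTR1 (TAZ) rose (log2 fold change 0.72), as did YAP1, and the DNA-binding partner TEAD4 fell by 0.91. None was called with shPDK1_1 by edgeR or DESeq2, and 0 had an unadjusted p under 0.05 in either. With shPDK1_2, 3 of 14 fell (YAP1, STK4 and MOB1B), where 14.2% of all genes fell. YAP1 was at 81.0% of shCtrl (adjusted p = 1.11e-06, edgeR). Of the 20 targets, 5 rose and 10 fell in OSCs (median -0.50), where 31.5% of all genes fell. AMOTL2, an angiomotin-family gene, fell from 78.3 ± 6.05 to 15.7 ± 2.10 CPM (log2 fold change -2.31), whereas the stress-response gene GADD45A rose (1.56). With shPDK1_1, only IGFBP3 of 19 tested was called by edgeR, at 116% of shCtrl, where 3.06% of all genes were called. With shPDK1_2, 3 of 19 rose and 4 fell, the members of the list thus moving both ways. Of all genes, 12% rose and 14.2% fell. The largest rise in the list was FJX1 (0.35) and the largest fall AMOTL2 (-0.45). The FJX1 call was lost without shCtrl replicate 3 (adjusted p = 0.0666, edgeR). That of AMOTL2 was lost with DESeq2 (adjusted p = 0.0701) and, with edgeR, without shCtrl replicate 1 (0.160), shCtrl replicate 3 (0.0651), shPDK1_2 replicate 1 (0.130) or shPDK1_2 replicate 2 (0.0742).

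Of 13 TGF-beta ligands, receptors and Smads, 6 rose and 3 fell in OSCs (median 0.05, and -0.0047 without non-OSC replicate 3), that is 9 of 13 called beside 63.9% of all genes. LTBP1, which binds latent TGF-beta, rose most (1.48), and TGFBR2 fell to 78.3%. With shPDK1_2, 4 of 13 rose and 6 fell (median 0.08), where 12% of all genes rose and 14.2% fell. SMAD7, the inhibitory Smad, rose from 55.7 ± 5.30 to 103.5 ± 6.31 CPM (log2 fold change 0.89, adjusted p = 1.60e-10, edgeR), and the Smad repressor SKIL fell to 71.3%. SMAD7 was also the gene of this list called with shPDK1_1 (log2 fold change 0.37, median of the list 0.08), where 1.62% of all genes rose. Of 12 tested SRF/MRTF factors and targets, 3 rose and 7 fell in OSCs (median -0.37, with 31.5% of all genes falling), with ACTB and ACTG1 among those that fell and smooth muscle actin ACTA2 the largest rise (2.31). MYL9, a myosin light chain, fell in OSCs (-0.93) and rose with shPDK1_2 (0.84). With shPDK1_1, VCL and CNN2 rose and none fell (median 0.01), where 1.62% of all genes rose. With shPDK1_2, 4 of 12 rose and 2 fell (median 0.08), FHL2 falling to 68.9%, where 12% of all genes rose and 14.2% fell.

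CCN1 is itself known as an immediate early gene. Of 13 other immediate early genes, 10 rose and 1 fell in OSCs (median 1.63), where 32.4% of all genes rose, while IER2 (log2 fold change 0.03) and MYC (-0.20) were not called. Examples were the AP-1 subunit FOSB, rising from 1.59 ± 0.63 to 48.2 ± 5.53 CPM, and FOSL1, falling to 53.0%. With shPDK1_1, 6 fell and IER3 rose (median -0.26, against 1.44% of all genes falling). Leaving out 1 library gave 5 to 8 calls, and the median was -0.15 without shCtrl replicate 3. With shPDK1_2, 8 fell and none rose (median -0.63), where 14.2% of all genes fell and 12% rose. In that comparison 1 gene of the list was higher at an unadjusted p under 0.05, by edgeR and by DESeq2. ATF3, a stress-induced factor that the study also selected from these libraries, had 31.7 ± 0.20 CPM in shCtrl, 22.5 ± 2.46 with shPDK1_1 and 8.63 ± 0.88 with shPDK1_2. ATF3 is counted above among the genes that rose in OSCs and that fell with each hairpin. Having been selected for these directions, it is not independent evidence of them.

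Other matricellular proteins did not move as one group. In OSCs, 5 of 9 tested rose and 3 fell (median 0.78, beside 63.9% of all genes called). Tenascin-C (TNC) rose from 56.5 ± 1.83 to 336.3 ± 3.82 CPM (log2 fold change 2.57), and thrombospondin-1 (THBS1) fell from 374.2 ± 16.1 to 60.6 ± 3.57 CPM (-2.63). With shPDK1_2, 4 of 10 rose and 3 fell (median -0.06), where 12% of all genes rose and 14.2% fell. SPP1 (osteopontin) rose to 165% and the calcium-binding SMOC1 fell to 44.6% of shCtrl. With shPDK1_1 the only call of edgeR was POSTN (periostin), with 0 to 3 counts per shCtrl library and 18 to 22 per shPDK1_1 library (median of the list -0.06). Of all genes, 3.06% were called there. ITGA6, STK4, VCL, ACTB, ACTG1, IER2, MYC and POSTN are outside the naming rule and were chosen after their values were seen. Between the hairpins, 6.5% of all genes were called higher and 9.78% lower with shPDK1_2. The calls higher and lower, respectively, were 0 and 4 of 11 receptors and 0 and 3 of 14 YAP/TAZ-TEAD factors. For the targets of the latter they were 2 and 2 of 19, for TGF-beta 2 and 5 of 13 and for SRF/MRTF 2 and 2 of 12. For immediate early genes they were 0 and 10 of 13, ATF3 included, and for matricellular genes 4 and 3 of 10.

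**Figure D5:**
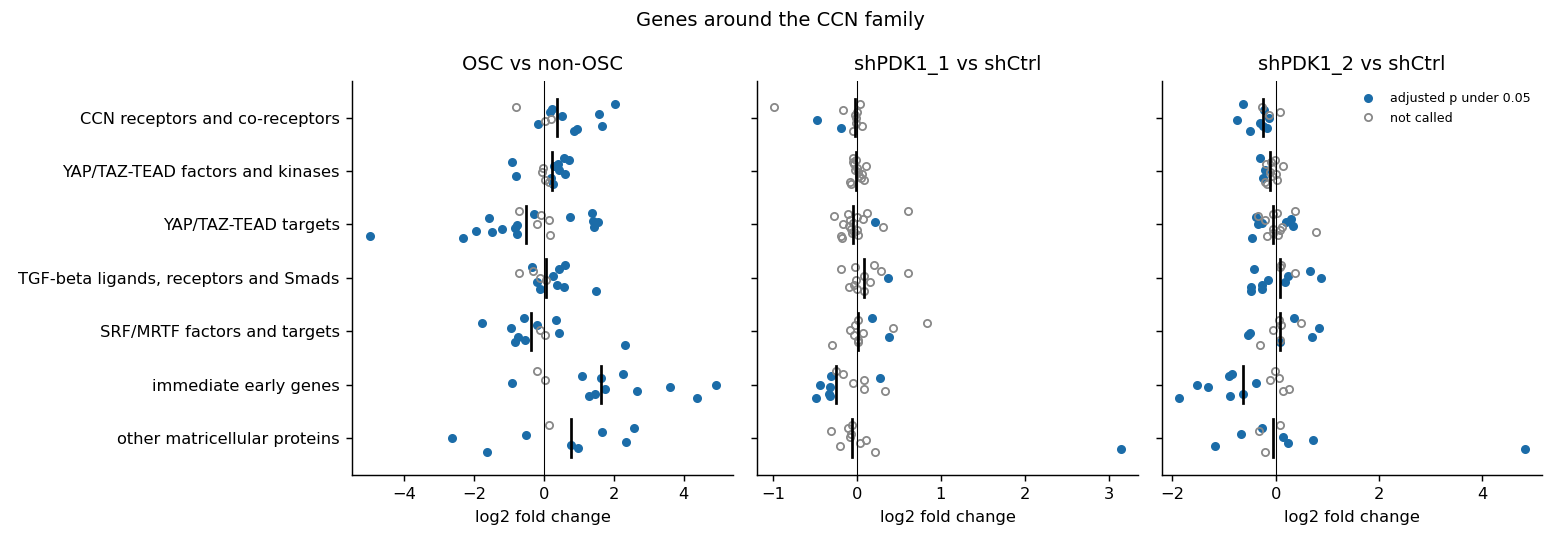
Log2 fold change of the tested genes of the 7 lists in OSC against non-OSC and in each hairpin against shCtrl (x axes differ). Filled points have an adjusted p under 0.05 (edgeR), open points do not, and the black bar is the median of the list. Immediate early genes have the highest median in OSCs (1.63) and the lowest with shPDK1_2 (-0.63).

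The genes whose pattern was most like that of each member were found by Pearson's r of log2(CPM + 0.1), centred within each table, over the 15 libraries and 9847 genes with at least 10 CPM in both tables. The libraries share conditions and tables, so r describes these libraries only. For CCN3 the most similar genes were FOS (r = 0.996), ETS2 (0.996) and APLP2 (0.995), and within the 9 shRNA libraries these had r of 0.982, 0.971 and 0.988. For CCN2 they were SFPQ (0.996), POLR1A (0.995) and ATP5F1B (0.995), with 0.918, 0.942 and 0.894 in the shRNA libraries. For CCN1 they were CDK12 (0.992), TYMS (0.987) and PPARGC1B (0.985), with 0.838, 0.817 and 0.770. Between members, r over the 15 libraries was 0.973 for CCN1 and CCN2, -0.906 for CCN1 and CCN3 and -0.962 for CCN2 and CCN3 and these values include the difference between OSC and non-OSC. In the 9 shRNA libraries alone the values were 0.592, 0.035 and -0.658.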

How the data were processed

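Bulk RNA-seq of 143B cells was analysed from 2 deposited tables of expected counts per gene (6 and 9 libraries), which the authors had made with Trimmomatic 0.39, FastQC 0.12.1, STAR 2.7.11a and RSEM 1.3.3 on GRCh38.p14. Columns headed S2D and S3D were read as the attached (non-OSC) and sphere (OSC) libraries, con as shCtrl, and the hairpins by their number; the headers do not repeat the sample titles. The annotation and strand setting are not given in the sources used here. All 62700 IDs were found in GENCODE 44, from which symbols, exon lengths and coordinates were taken. Of the values, 6.85% and 6.92% were not whole and were rounded. Tests used edgeR 4.0.16 (R 4.3.3) with TMM, filterByExpr and the quasi-likelihood test, with 1 fit per table and Benjamini-Hochberg adjustment over all genes tested (threshold 0.05). Within-library ratios used two-sided exact permutation tests (scipy 1.17.1). The edgeR fit was tested on simulated data.

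The members and gene lists were chosen with earlier results of these data known. Text names the 6 members, PDK1, the called gene of at least 10 CPM with the largest rise and fall per list and comparison, and the 3 genes most correlated with each of CCN1, CCN2 and CCN3.

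Alternatives were DESeq2 1.42.0, library size alone, other filters (none, or 10 counts in every library), only the compared groups, a replicate block and leaving out each library; those for lists were added after seeing the data. The chi-square between replicate libraries, divided by its degrees of freedom, was 1.96 to 3.56, above the value of counting noise, so no library was taken for a copy of another.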

Additional observations from a re-analysis of the deposited data

Results flagged for a closer look

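The direct contrast of the 2 PDK1 hairpins passed the threshold for each tested member with all libraries, although the call of CCN1 was lost under 6 of 15 alternatives (adjusted p of 0.0544 to 0.169, the highest without shPDK1_2 replicate 2). In the edgeR fit over all 9 shRNA libraries, the log2 fold change of shPDK1_2 against shPDK1_1 was 0.23 for CCN1 (adjusted p = 0.037), 0.61 for CCN2 (adjusted p = 3.18e-05) and -1.10 for CCN3, the last given as a description because the study selected CCN3 from these libraries. The libraries of both hairpins did not overlap for CCN1, CCN2 and CCN3, which was also the case for 30.7% of all genes. CCN2 is the member for which the estimates against shCtrl have opposite signs (-0.28 with shPDK1_1 and 0.33 with shPDK1_2), of which only the latter passed the threshold. The level of PDK1 differed between the hairpins as well (62.0% and 43.7% of shCtrl), and its part in these differences was not tested.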

How the results depend on the processing

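Of 168 recomputed member values, 157 kept their side of the threshold, 10 lost the call, 1 gained it and none changed direction. These include the values of CCN3, which the study selected from these libraries. PDK1 kept its call in all 56. Leaving out 1 library gave 245 to 508 genes called with shPDK1_1 (446 with all libraries; 245, 270 and 282 without shPDK1_1 replicate 3, shCtrl replicate 1 and shCtrl replicate 2), 1 to 3 CCN members called with shPDK1_1 and 1 to 2 with shPDK1_2. The log2 difference of the CCN3 to CCN1 ratio with shPDK1_1 ranged from -0.23 to 0.0014, changing sign without shPDK1_1 replicate 3. Low totals limit CCN4 to CCN6, and 3 libraries a group limit the ratios.

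Same-numbered libraries did not deviate together (12 pairs, r from -0.054 to 0.095). With 3 libraries a group this cannot exclude that the numbers pair them. With a replicate block 507, 3943 and 9420 genes were called with shPDK1_1, with shPDK1_2 and in OSCs, against 446, 3812 and 9126 without it. Between the hairpins 2522 were called, against 2374. With the block 2 genes of the TGF-beta list were called with shPDK1_1, and no call of a member changed.

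For the lists, with at least 10 counts in every library, median log2 fold changes in OSCs became 0.70 for receptors, -0.29 for YAP/TAZ-TEAD targets and 0.47 for other matricellular proteins. With shPDK1_2 the last became -0.20, and between the hairpins -0.013, with -0.19 for receptors. In this setting edgeR called 2 TGF-beta genes with shPDK1_1 and 0 other matricellular genes (3 at an unadjusted p under 0.05), where POSTN was no longer tested. DESeq2 called 0 of the latter with the filter used throughout (4 at an unadjusted p under 0.05), since it gave POSTN no adjusted p. Without a filter, medians in OSCs became 0.24 (receptors), -0.20 (SRF/MRTF) and 0.47 (other matricellular), the last being 0.82 with library size alone. Leaving out 1 library, medians in OSCs ranged from 0.14 to 0.32 (YAP/TAZ-TEAD factors) and -0.52 to -0.38 (their targets). With shPDK1_1 they ranged from 0.017 to 0.10 (TGF-beta) and -0.081 to -0.0016 (other matricellular), and calls from 1 to 2 in both lists, in YAP/TAZ-TEAD targets and in SRF/MRTF. With shPDK1_2 medians ranged from -0.13 to -0.081 (YAP/TAZ-TEAD factors), 0.022 to 0.10 (TGF-beta) and -0.19 to 0.048 (other matricellular). Between the hairpins they ranged from -0.10 to -0.063 (YAP/TAZ-TEAD factors) and -0.11 to 0.16 (other matricellular), and SRF/MRTF calls from 4 to 7. The cause of these shifts was not tested beyond the genes or libraries each setting removes.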
